A study of Homo sapiens with 12 samples.

Results

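Cadherins other than E-cadherin (CDH1) and N-cadherin (CDH2), together with all protocadherins, were followed in A549 cells, an established line derived from human non-small cell lung carcinoma. The members are the protein-coding genes named CDH with a number or beginning with PCDH, without CDH1, CDH2 and genes of chromosome Y, which gives 86 of the 58735 genes in the deposited count table. They comprise 3 classical type I cadherins, 13 type II cadherins, 5 other cadherins, 12 non-clustered protocadherins, and 53 clustered protocadherins (15 alpha, 16 beta and 22 gamma genes). The cells carried a stable short hairpin RNA, which was a control (shControl, with the genotype labelled WT) or targeted TRIM22 (shTRIM22), a tripartite motif protein that acts as a ubiquitin ligase. Each population was either sham irradiated or harvested 3 days after ionizing radiation, which gives 4 groups of 3 libraries of poly(A) RNA. For each hairpin, 1 stable population is described in the labels. "Knockdown" below therefore means shTRIM22 against shControl cells, and any other difference between the populations cannot be told apart from the loss of TRIM22. Neither the radiation dose nor the harvest time of sham cells is in the labels used here.

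Classical cadherins are calcium-dependent adhesion receptors that bind like molecules on the neighbouring cell and hold the actin cytoskeleton through catenins. Protocadherins lack the catenin-binding tail. The clustered protocadherins lie in tandem on chromosome 5, where neurons switch on different variable exons, each with a promoter of its own, as a surface identity code. In the alpha and gamma clusters each variable exon is spliced to constant exons shared by the cluster, whereas beta genes have no shared constant exons. Most variable promoters carry a conserved element that can be bound by CTCF, a zinc-finger protein that organises chromatin loops together with cohesin.

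The promoters are shown because of this element. Whether the letters picked out below belong to it was not tested. RefSeq promoter windows (GRCh38.p14, 250 bases before to 50 bases after each gene's start) were present for 68 members. In each cluster the 10 letters found in most genes were sought on both strands and are in capitals below, with the flanking bases in lower case, 5′ to 3′ on the plus strand. The first 4 sequences are alpha genes, the next 4 beta genes and the last 4 gamma genes.
PCDHA1 (chr5:140786077-140786116): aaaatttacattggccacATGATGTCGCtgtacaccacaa
PCDHA2 (chr5:140794772-140794811): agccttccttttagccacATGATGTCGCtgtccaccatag
PCDHA5 (chr5:140821533-140821572): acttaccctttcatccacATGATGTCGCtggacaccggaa
PCDHA12 (chr5:140875235-140875274): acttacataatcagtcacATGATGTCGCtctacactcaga
PCDHB2 (chr5:141094537-141094576): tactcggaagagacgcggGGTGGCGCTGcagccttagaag
PCDHB5 (chr5:141135172-141135211): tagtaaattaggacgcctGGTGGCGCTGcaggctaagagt
PCDHB8 (chr5:141177770-141177809): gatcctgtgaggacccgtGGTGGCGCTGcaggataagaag
PCDHB13 (chr5:141213858-141213897): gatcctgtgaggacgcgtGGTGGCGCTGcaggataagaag
PCDHGA1 (chr5:141330397-141330436): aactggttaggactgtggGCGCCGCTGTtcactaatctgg
PCDHGA7 (chr5:141382643-141382682): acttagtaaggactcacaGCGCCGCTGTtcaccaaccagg
PCDHGB4 (chr5:141387611-141387650): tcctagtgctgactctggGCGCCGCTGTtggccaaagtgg
PCDHGB5 (chr5:141397857-141397896): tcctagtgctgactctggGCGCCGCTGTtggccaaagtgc
The alpha run ATGATGTCGC was in 8 of 13 alpha promoters and in 0.0313% of all 35116 windows. The beta run GGTGGCGCTG was in 12 of 14 beta promoters, all but PCDHB1 and PCDHB14, and in 0.276% of all windows. The gamma run GCGCCGCTGT was in 9 of 20 gamma promoters and in 0.131% of all windows. On the other strand 0 windows of the respective cluster held the run. Each run was picked for being the most common in its own cluster, so its higher share there was set by that choice. The windows of the clusters are also among all windows. A match is a string of letters, and binding at these places was not measured here.

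Total counts ran from 14468386 to 17872154 per library. TRIM22, the target of the hairpin, held 2.28 ± 0.538 CPM (counts scaled to library size by TMM, mean ± SD, n = 3) in shControl sham, 17.6 ± 0.969 in shControl irradiated, 0.308 ± 0.0169 in shTRIM22 sham and 2.00 ± 0.579 in shTRIM22 irradiated cells. Replicate 3 of shTRIM22 sham stood apart: mitochondrially encoded genes took 2.67% of its counts, against 9.12% to 14.4% in the other 11 libraries. Counts of members are therefore also given without it, and so is each call of a member that changes. Separate cultures are not stated for the 3 biological replicates of a group, and the p-values then reflect only how these libraries vary, which may be technical. In bulk RNA, fewer expressing cells and less RNA per cell cannot be told apart.

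Of the 86 members, 53 passed the filter on low counts and were tested, among 17094 genes in all, with the quasi-likelihood test of edgeR at an adjusted p below 0.05. Without irradiation, 27 members were higher and 8 lower in shTRIM22 than in shControl cells. Over all genes tested, 25.4% were called higher and 22.1% lower in that comparison, 47.5% in all. After irradiation, 26 members were higher and 6 lower, where 17.6% and 18.0% of all genes were called, 35.6% in all. The 2 knockdown comparisons share no library, although they share the cell populations. In both of them 24 members were higher, which is 88.9% of the first list and 92.3% of the second, and 6 were lower, which is 75.0% of the first list and all of the second. Over all 17094 genes, those called higher in both comparisons were 55.5% of the first list and 79.9% of the second, and those called lower in both were 63.8% and 78.3%. Whether the members differ from all genes in this was not tested. Irradiation of shControl cells raised 3 members and lowered 2, where 10.6% of all genes were called higher and 7.53% lower. In shTRIM22 cells irradiation raised 7 and lowered 3, where 13.5% and 14.0% were called. The effect of irradiation differed between the populations for 1 member, CDH4, where 1.61% of all genes were called, 0.521% higher and 1.09% lower. Without replicate 3 of shTRIM22 sham, the knockdown counts were 28 higher and 7 lower without irradiation and 28 higher and 6 lower after it. Irradiation then raised 4 and lowered 2 members in shControl cells and raised 7 and lowered 2 in shTRIM22 cells, and the interaction was called for 2. The share over all genes in that fit is not given, here or below, so its counts are not set against one. PCDHGB3 and CDH26 were tested only in that fit and were called in 0 comparisons.

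Most of the members that rose with knockdown were clustered protocadherins. Of the 53 clustered genes, 35 were tested, of which 22 were higher and 0 lower without irradiation and 21 higher and 0 lower after it. Of the 35, 16 passed the filter only through the shTRIM22 libraries and were thus partly selected for a high level there, so these counts alone carry little. Of the 18 that passed through at least 3 shControl libraries, 12 were higher and 0 lower in each knockdown comparison. When replicate 3 of shTRIM22 sham was left out, these 18 gave 12 higher without irradiation and 13 after it, with 0 lower, and all tested clustered genes gave 22 and 23 of 36. The members outside the clusters went both ways, with 5 higher and 8 lower of 18 tested without irradiation and 5 higher and 6 lower after it. Without that library they were 6 higher and 7 lower of 19, and 5 and 6. With all libraries, 25.4% of all genes were called higher and 22.1% lower without irradiation, and 17.6% and 18.0% after it.

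Sums of the raw counts over all genes of a cluster, tested or not, do not depend on the filter. Nor do they depend on how counted reads were divided among genes of the same cluster. Reads lost in the counting, or assigned to overlapping genes outside the clusters, can still affect them. For example, 1247 of the 5001 exon bases of PCDHB16 are shared with such genes. The alpha sum was 67.9, 64.6 and 68.2 CPM in the shControl sham libraries, 70.2, 70.9 and 65.8 in shControl irradiated, 111.9, 112.1 and 134.5 in shTRIM22 sham, and 104.2, 101.8 and 103.7 in shTRIM22 irradiated cells. All 6 shTRIM22 libraries lay above all 6 shControl libraries, and the highest value was the library that stood apart. The beta sum was 13.6, 13.7 and 13.5 CPM in shControl sham, 12.0, 15.5 and 14.1 in shControl irradiated, 25.2, 29 and 27.4 in shTRIM22 sham, and 31.4, 31.9 and 29.8 in shTRIM22 irradiated cells. The gamma sum was 8.68, 10.2 and 9.73 CPM in shControl sham, 8.21, 7.81 and 6.98 in shControl irradiated, 24.5, 22.7 and 22.8 in shTRIM22 sham, and 18.4, 19.4 and 18.3 in shTRIM22 irradiated cells. In the beta and gamma clusters, too, the populations did not overlap.

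**Figure D1:**
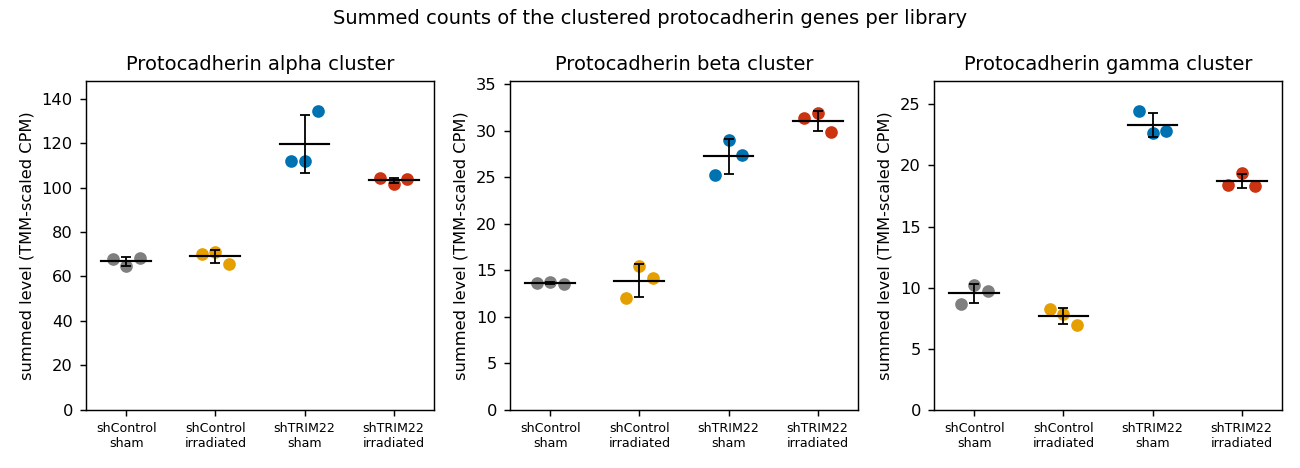
Summed level of the alpha, beta and gamma protocadherin genes (TMM-scaled CPM, linear axes from 0) in each of the 12 libraries; points are libraries, horizontal lines group means and bars SD (n = 3). In each cluster the 6 shTRIM22 libraries lie above the 6 shControl libraries, and in the alpha cluster shTRIM22 sham replicate 3 is the highest at 134.5 CPM.

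Knockdown without irradiation raised the alpha sum 1.79-fold (log2 0.84, SE 0.07, adjusted p = 9.67e-08), the beta sum 2.00-fold (log2 1.00, SE 0.10, adjusted p = 5.52e-07) and the gamma sum 2.44-fold (log2 1.29, SE 0.10, adjusted p = 3.80e-08). After irradiation the rises were 1.5-fold for alpha, 2.24-fold for beta and 2.45-fold for gamma (adjusted p = 1.03e-05, 1.72e-07 and 1.09e-07). Without replicate 3 of shTRIM22 sham, the rises without irradiation were 1.68-fold, 1.99-fold and 2.47-fold. Irradiation moved the sums far less. In shTRIM22 cells the alpha sum fell by 0.21 on the log2 scale (adjusted p = 0.0371), a call that was lost without replicate 3 (log2 -0.12, adjusted p = 0.101), and the gamma sum fell by 0.32 (adjusted p = 0.0238). The beta sum of shTRIM22 cells was at a log2 change of 0.19 (adjusted p = 0.153). In shControl cells 0 of the 3 sums passed the threshold, although the gamma change was of the same size as in shTRIM22 cells (log2 -0.32, adjusted p = 0.0608) and passed without that library (adjusted p = 0.0413). The effects of irradiation on the sums did not differ detectably between the populations, with adjusted p = 0.217, 0.604 and 0.996 for the interaction.

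In the alpha cluster 13 of 15 genes were tested. Of these 8 rose with knockdown without irradiation and 9 after it, where 25.4% and 17.6% of all genes were called higher. Without the library that stood apart 7 and 9 rose. PCDHAC1, a C-type isoform, of the kind that neurons express constitutively, held 13, 14 and 12.9 CPM in shControl sham, 12.7, 14.3 and 13.9 in shControl irradiated, 23.0, 27.3 and 26.2 in shTRIM22 sham, and 24.9, 26.0 and 25.4 in shTRIM22 irradiated cells. The populations did not overlap, while sham and irradiated libraries of each population did. The rise was 1.92-fold without irradiation (SE of log2 0.10, adjusted p = 6.14e-07) and 1.86-fold after it (adjusted p = 1.92e-06).

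PCDHA4 held 8.87, 7.96 and 8.78 CPM in shControl sham, 9.27, 8.85 and 9.52 in shControl irradiated, 17.4, 15.4 and 26.9 in shTRIM22 sham, and 16.4, 13.2 and 16.1 in shTRIM22 irradiated cells. The value of 26.9 CPM belongs to the library that stood apart. The rises were 2.33-fold and 1.65-fold (adjusted p = 2.44e-05 and 0.00401). PCDHA12 and PCDHA11, at 2.13 and 2.14 CPM per kilobase of exon in shControl sham cells, rose 1.92-fold and 1.60-fold without irradiation and 1.32-fold and 1.40-fold after it. They were also the alpha genes that fell with irradiation of shTRIM22 cells, PCDHA12 from 22.4 ± 2.51 to 17.4 ± 1.15 CPM (adjusted p = 0.0264; 0.0502 without the library that stood apart) and PCDHA11 from 21.6 ± 2.19 to 16.1 ± 0.568 CPM (adjusted p = 0.0132). PCDHA5 rose 2.16-fold and 1.91-fold, and PCDHA3 1.40-fold and 1.72-fold. The call of PCDHA3 without irradiation was lost without replicate 3 of shTRIM22 sham (adjusted p = 0.151).

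PCDHA1 was sparse, at 0.517 ± 0.327 CPM in shControl sham and 1.98 ± 0.346 in shTRIM22 sham, and rose 3.85-fold without irradiation and 3.16-fold after it. PCDHA2 passed only without irradiation (2.32-fold, adjusted p = 0.00755), with 1.45-fold and adjusted p = 0.203 after it. PCDHA7 and PCDHA10 passed only after irradiation (3.18-fold and 1.65-fold, adjusted p = 0.0318 and 0.0353). For none of these 3 did the interaction pass, so the comparisons are not shown to differ. PCDHA1 and PCDHA7 had passed the filter only through the shTRIM22 libraries.

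The other C-type alpha gene, PCDHAC2, was not called with knockdown. It held 7.92, 7.15 and 6.92 CPM in shControl sham, 7.85, 10.4 and 8.75 in shControl irradiated, 6.52, 7.36 and 6.09 in shTRIM22 sham, and 7.47, 6.87 and 8.62 in shTRIM22 irradiated cells, and the groups overlapped. The log2 change with knockdown was -0.14 (95% interval -0.43 to 0.15) without irradiation and -0.24 (-0.52 to 0.05) after it. Its share of all alpha counts was 11% ± 0.764 in shControl sham and 5.64% ± 1.03 in shTRIM22 sham, while that of PCDHAC1 was 19.9% ± 1.53 and 21.5% ± 2.55.

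The beta genes, whose isoforms end shortly after the membrane, were tested for 11 of 16. Knockdown raised 6 of them without irradiation and 6 after it, where 25.4% and 17.6% of all genes were called higher. Without the library that stood apart the counts of beta genes were the same. PCDHB5 held 2.33, 3.26 and 2.76 CPM in shControl sham, 2.69, 3.71 and 2.60 in shControl irradiated, 6.09, 6.44 and 7.27 in shTRIM22 sham, and 7.99, 8.92 and 8.75 in shTRIM22 irradiated cells. The populations did not overlap, and the rises were 2.37-fold (SE of log2 0.18, adjusted p = 2.53e-05) and 2.85-fold (adjusted p = 4.48e-06). PCDHB2, at 1.00 CPM per kilobase of exon in shControl sham cells against 0.816 for PCDHB5, rose 1.57-fold and 1.46-fold (adjusted p = 0.00545 and 0.0236).

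PCDHB8 went from 0.888 ± 0.0505 to 3.30 ± 0.152 CPM without irradiation and from 0.583 ± 0.383 to 3.91 ± 0.620 CPM after it, rises of 3.69-fold and 6.45-fold (adjusted p = 1.12e-04 and 9.61e-06). PCDHB13, its closest relative in sequence, rose 3.26-fold and 3.78-fold. Of the 50-base words in the first exon of PCDHB8, 33.0% also occur in that of PCDHB13, and the bases around their shared promoter run above are nearly the same, so reads of this pair may have been divided or lost in the counting. PCDHB16 rose 3.30-fold and 4.13-fold, and PCDHB6 2.04-fold and 2.34-fold. PCDHB13 and PCDHB16 had passed the filter only through the shTRIM22 libraries. The tested beta genes that passed in neither comparison, PCDHB3, PCDHB4, PCDHB11, PCDHB14 and PCDHB15, all had a mean under 1 CPM. So did PCDHB16, which was called.

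In the gamma cluster 11 of 22 genes were tested. Knockdown raised 8 of them without irradiation and 6 after it, where 25.4% and 17.6% of all genes were called higher. Without the library that stood apart it raised 9 and 8 of 12. Most of the tested gamma genes passed the filter only through the shTRIM22 libraries, so these counts alone carry little. PCDHGC3, the C-type gamma gene that is known from many tissues, held 1.45, 1.5 and 1.46 CPM in shControl sham, 1.06, 2.21 and 1.60 in shControl irradiated, 5.16, 4.92 and 6.03 in shTRIM22 sham, and 3.51, 4.28 and 4.76 in shTRIM22 irradiated cells. It rose 3.64-fold (SE of log2 0.23, adjusted p = 6.00e-06) and 2.56-fold (adjusted p = 2.86e-04), and no shTRIM22 library overlapped the shControl libraries. PCDHGB5 rose 2.15-fold and 4.83-fold, PCDHGA1 3.54-fold and 3.43-fold, PCDHGA2 4.40-fold and 3.02-fold, PCDHGA4 4.87-fold and 4.48-fold, and PCDHGA5 3.40-fold and 4.45-fold. These 5 genes had means under 1 CPM in both shControl groups and had passed the filter through the shTRIM22 libraries. PCDHGB2 and PCDHGB4, which had also passed the filter through the shTRIM22 libraries, were called only without irradiation (4.12-fold and 4.34-fold). After it they stood at 1.75-fold and 2.23-fold (adjusted p = 0.406 and 0.0657), and PCDHGB4 passed there without replicate 3 of shTRIM22 sham (adjusted p = 0.0333). PCDHGB1, named here after its values were seen, was not called with all libraries (adjusted p = 0.0911 and 0.0761) and was called without that one (2.08-fold and 2.23-fold, adjusted p = 0.0384 and 0.0404). PCDHGB4 also shares 47.4% of its first-exon 50-base words with PCDHGA8.

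PCDHGA7, at 0.645 CPM per kilobase of exon in shControl sham cells against 0.271 for PCDHGC3, was not called with knockdown. It held 2.70, 3.89 and 3.94 CPM in shControl sham, 2.05, 2.08 and 1.77 in shControl irradiated, 3.10, 3.28 and 3.69 in shTRIM22 sham, and 2.86, 2.41 and 2.70 in shTRIM22 irradiated cells. The log2 change with knockdown without irradiation was -0.07 (95% interval -0.45 to 0.32), and after irradiation 0.43 (0.00 to 0.86). Irradiation lowered it 1.79-fold in shControl cells (adjusted p = 0.0105), where it was the single clustered gene called. Its share of all gamma counts was 36.6% ± 4.83 in shControl sham, 25.7% ± 0.866 in shControl irradiated, 14.4% ± 1.76 in shTRIM22 sham and 14.2% ± 1.62 in shTRIM22 irradiated cells.

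**Figure D2:**
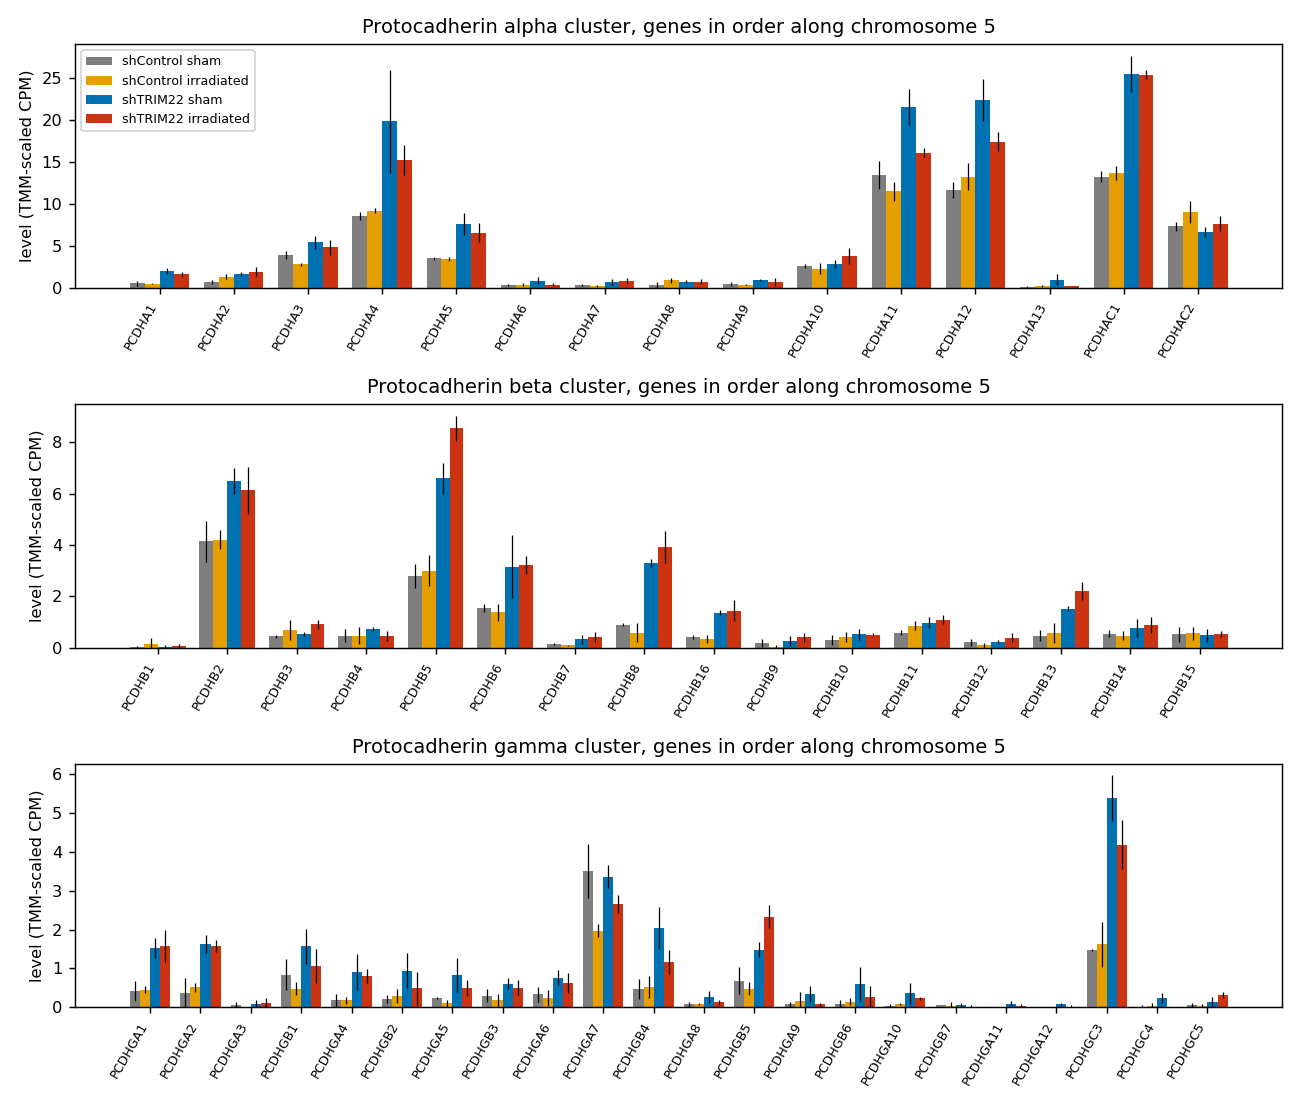
Level of each clustered protocadherin gene (TMM-scaled CPM, linear axes from 0) in the 4 groups, in the order of the genes on chromosome 5; bars are means of 3 libraries and lines SD. Most of the taller genes have higher shTRIM22 bars. PCDHAC2 does not, and PCDHGA7 does so only among irradiated cells, where it was not called. Many beta and gamma genes lie under 1 CPM.

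Read against the promoter runs printed above, the alpha genes split as follows. Of the alpha genes with the run, 5 of 7 tested were higher with knockdown without irradiation, against 2 of 5 tested genes without it. In the beta cluster these counts were 5 of 8 with the run and 0 of 1 without it, and in the gamma cluster 3 of 5 and 5 of 6. These counts include genes that passed the filter only through the shTRIM22 libraries. Among those that passed through at least 3 shControl libraries, over the 3 clusters together, 7 of 10 with the run and 3 of 5 without it were higher, and the difference was not tested. PCDHAC1 rose without the alpha run in its window, and PCDHGA7 carries the gamma run shown above.

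The classical type I members behaved in opposite ways. CDH4, R-cadherin, first described in the retina (chromosome 20, 61252426 to 61940617), held 12.6, 12.7 and 12.3 CPM in shControl sham, 9.91, 8.40 and 10.7 in shControl irradiated, 29.6, 32.3 and 31.6 in shTRIM22 sham, and 12.3, 15.8 and 12.1 in shTRIM22 irradiated cells. The shTRIM22 sham libraries stood high, and the irradiated shTRIM22 libraries came down to nearly the shControl sham level. Knockdown raised CDH4 2.48-fold without irradiation (SE of log2 0.12, adjusted p = 1.19e-07) and 1.39-fold after it (adjusted p = 0.00719). Irradiation lowered it 1.30-fold in shControl cells (adjusted p = 0.0481) and 2.32-fold in shTRIM22 cells (adjusted p = 2.64e-06). The difference of these effects was -0.84 on the log2 scale (SE 0.17, adjusted p = 0.0196), which made CDH4 the member whose irradiation response differed between the populations. Leaving out any of 7 libraries in turn (shControl sham replicate 1, 2 or 3, or replicate 1 or 3 of either irradiated group) kept the direction but lost this call, with an adjusted p of at most 0.0740. With replicate number as a block the shControl effect was no longer called.

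CDH3, P-cadherin of basal epithelial cells (chromosome 16, 68636189 to 68722616), was sparse. It passed the filter only through the shControl libraries and was thus partly selected for a high level there. It held 0.503, 1.19 and 0.619 CPM in shControl sham, 1.42, 1.30 and 0.650 in shControl irradiated, 0.109, 0.182 and 0.117 in shTRIM22 sham, and 0.585, 0.482 and 0.257 in shTRIM22 irradiated cells. Within each treatment the shTRIM22 libraries lay below the shControl libraries. The fall was 5.44-fold without irradiation (adjusted p = 0.00284) and 2.49-fold after it (adjusted p = 0.0390). Its exons overlap those of an antisense gene, and the counting is not known to use strand. CDH15, the muscle cadherin and the last of the 3, was too low to be tested.

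Among the 13 type II cadherins, 7 were tested. CDH5, vascular endothelial cadherin (chromosome 16, 66366622 to 66404786), had the largest fold change of the members with knockdown, from very few reads. It passed the filter only through the shTRIM22 libraries and was thus partly selected for a high level there. Its raw counts were 2, 1 and 2 in shControl sham, 0, 6 and 17 in shControl irradiated, 29, 24 and 29 in shTRIM22 sham, and 51, 99 and 66 in shTRIM22 irradiated libraries. The highest shControl library stayed below the lowest shTRIM22 library. The level was 0.100 ± 0.0333 CPM in shControl sham and 1.58 ± 0.120 in shTRIM22 sham, a fitted rise of 14.6-fold (log2 3.87, SE 0.70, adjusted p = 3.02e-04), and 0.465 ± 0.507 and 4.51 ± 1.34 CPM after irradiation, a rise of 9.13-fold (adjusted p = 9.24e-05). Irradiation raised it 2.85-fold in shTRIM22 cells (adjusted p = 0.0115), and the shControl change, which rests on 2 of the 3 irradiated libraries, did not pass (adjusted p = 0.0963; 0.0417 without replicate 3 of shTRIM22 sham).

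Other endothelial markers are given because CDH5 is one. Of a list of 10, 2 were tested, and the summed level was 5.01 to 5.51 CPM in shControl sham, 3.67 to 5.66 in shControl irradiated, 3.70 to 4.01 in shTRIM22 sham and 5.47 to 7.73 in shTRIM22 irradiated libraries. Most of this was PECAM1, an adhesion molecule also found on blood cells. The endothelial receptor TEK had at most 4 counts in any library and KDR at most 6, while VWF, a secreted clotting protein, reached 15 counts after irradiation of shTRIM22 cells. Knockdown without irradiation lowered ESAM, an endothelial junction protein (adjusted p = 0.0377), and 0 of the 2 were called with knockdown after irradiation. Irradiation of shTRIM22 cells raised PECAM1 1.66-fold (adjusted p = 0.00921), where CDH5 also rose.

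CDH6, known from fetal kidney, held 1.97 ± 0.417 CPM in shControl sham, 2.34 ± 0.756 in shControl irradiated, 0.580 ± 0.373 in shTRIM22 sham and 0.736 ± 0.0940 in shTRIM22 irradiated cells, falls of 3.38-fold and 3.17-fold with knockdown (adjusted p = 0.00226 and 0.00368). CDH19, a cadherin of the Schwann cell lineage, held 8.74, 5.89 and 6.30 CPM in shControl sham, 6.79, 6.83 and 7.69 in shControl irradiated, 2.50, 2.31 and 2.11 in shTRIM22 sham, and 2.79, 4.16 and 4.05 in shTRIM22 irradiated cells. It fell 3.01-fold without irradiation (adjusted p = 6.60e-06) and 1.93-fold after it (adjusted p = 9.31e-04), and irradiation raised it 1.59-fold in shTRIM22 cells (adjusted p = 0.0281). CDH24 fell 1.75-fold and 1.41-fold with knockdown (adjusted p = 2.45e-04 and 0.0161), from 11.9 ± 1.08 to 6.78 ± 1.12 CPM without irradiation.

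CDH11, a mesenchymal cadherin of osteoblasts, rose with irradiation in both populations, from 18.6 ± 1.89 to 23.5 ± 0.6 CPM in shControl cells (1.26-fold, adjusted p = 0.0241) and from 21.6 ± 1.38 to 26.9 ± 1.82 in shTRIM22 cells (1.24-fold, adjusted p = 0.0212). Its knockdown changes were 1.16-fold and 1.15-fold (adjusted p = 0.0793 and 0.122), and the first passed without replicate 3 of shTRIM22 sham (adjusted p = 0.0229). CDH8 and CDH10, brain cadherins, were tested at means under 1 CPM and called in 0 of the 5 comparisons.

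CDH17, the liver-intestine cadherin, which has a short tail without catenin binding, combined both effects. It held 32.4, 33.3 and 30.8 CPM in shControl sham, 58.5, 53.6 and 59.3 in shControl irradiated, 23.3, 22.1 and 20.0 in shTRIM22 sham, and 42.2, 35.5 and 38.0 in shTRIM22 irradiated cells. No group overlapped another. With irradiation it rose 1.78-fold in the control population (log2 0.83, SE 0.09, adjusted p = 5.42e-06) and 1.77-fold in the knockdown population (adjusted p = 8.08e-06), and knockdown lowered it 1.47-fold and 1.48-fold (adjusted p = 7.59e-05 and 6.81e-05). The interaction was -0.01 on the log2 scale (95% interval -0.25 to 0.24). CDH16, the kidney-specific cadherin, held group means of 4.77 to 5.60 CPM and was called in 0 comparisons; its knockdown change without irradiation was 0.19 (95% interval -0.13 to 0.51). CDH23, the tip-link cadherin of inner-ear hair cells, was also called in 0 comparisons, with group means of 6.85 to 8.86 CPM and exons that overlap C10orf105 on the other strand.

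Of the 12 non-clustered protocadherins, 6 were tested, and all 6 were called in the knockdown comparison without irradiation, 3 in each direction. Over all genes 47.5% were called there, and the difference was not tested. PCDH7 (chromosome 4, 30720415 to 31146805), a delta-type protocadherin whose tail binds protein phosphatase 1, held 5.28, 4.39 and 3.94 CPM in shControl sham, 6.51, 6.38 and 7.80 in shControl irradiated, 22.9, 19.3 and 26.0 in shTRIM22 sham, and 30.1, 31.2 and 29.8 in shTRIM22 irradiated cells. The groups followed each other in this order without overlap. Knockdown raised it 5.02-fold (SE of log2 0.14, adjusted p = 1.45e-09) and 4.39-fold (adjusted p = 3.80e-09), and irradiation raised it 1.53-fold (shControl, adjusted p = 0.0103) and 1.34-fold (shTRIM22, adjusted p = 0.0148).

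PCDH9 (chromosome 13, 66302834 to 67230445), a delta-type member best known from the brain, went the other way. It held 59.0, 60.6 and 58.7 CPM in shControl sham, 62.0, 63.1 and 59.2 in shControl irradiated, 31.9, 33.2 and 25.3 in shTRIM22 sham, and 35.2, 37.2 and 37.1 in shTRIM22 irradiated cells. Knockdown lowered it 1.97-fold and 1.68-fold (adjusted p = 1.45e-07 and 4.72e-06). Irradiation raised it 1.21-fold in shTRIM22 cells (adjusted p = 0.0289), a call that was lost without replicate 3 of shTRIM22 sham (adjusted p = 0.0869).

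PCDH1, which supports the airway epithelial barrier, held 11.2, 9.78 and 9.34 CPM in shControl sham, 9.76, 10.5 and 9.58 in shControl irradiated, 15.4, 15.5 and 14.9 in shTRIM22 sham, and 19.8, 21.0 and 16.8 in shTRIM22 irradiated cells. The populations did not overlap. Knockdown raised it 1.51-fold and 1.93-fold (adjusted p = 4.15e-04 and 6.71e-06), and irradiation 1.26-fold in shTRIM22 cells (adjusted p = 0.0336). PCDH10, which binds the WAVE actin-regulating complex, rose 1.60-fold and 1.93-fold with knockdown (adjusted p = 0.0420 and 0.00946). PCDH12, an endothelial and placental protocadherin, fell 1.55-fold (adjusted p = 0.0242) and PCDH17 2.00-fold (adjusted p = 0.0290) without irradiation, and after it they stood at log2 changes of 0.20 and -0.39 that were not called. Without replicate 3 of shTRIM22 sham the fall of PCDH17 was not called (adjusted p = 0.0949), whereas irradiation of shTRIM22 cells raised PCDH12 (log2 0.75, adjusted p = 0.0129) and its interaction passed (log2 1.05, adjusted p = 0.0285). The exons of PCDH9, PCDH12 and PCDH17 overlap genes on the other strand.

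**Figure D3:**
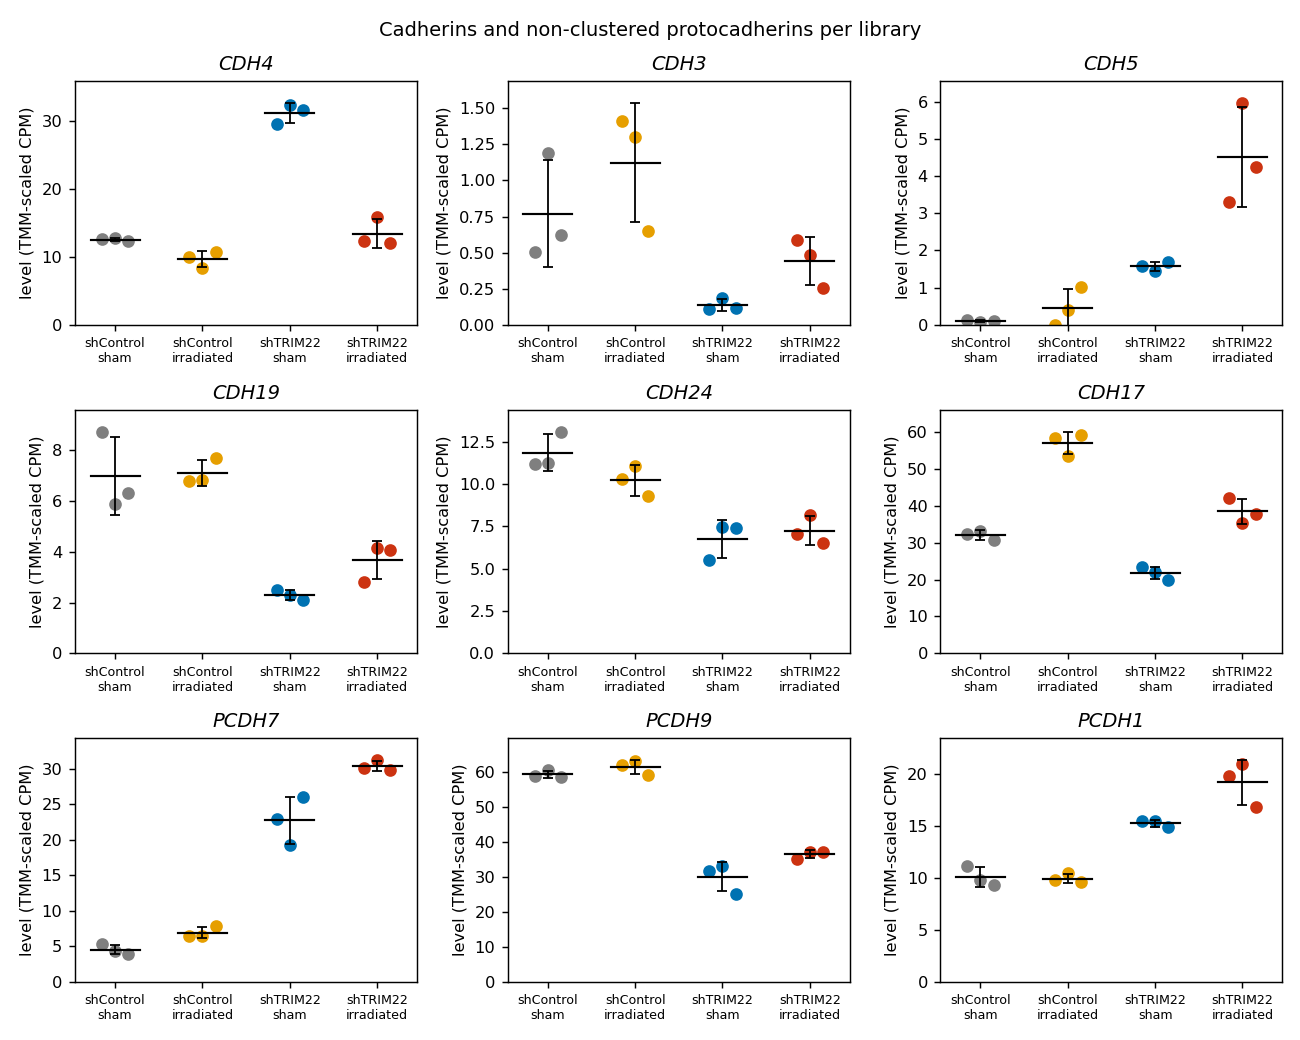
Level of 9 cadherins and non-clustered protocadherins (TMM-scaled CPM, linear axes from 0) in each library; points are libraries, horizontal lines group means and bars SD (n = 3). CDH4 stands high in shTRIM22 sham cells and close to its shControl level after irradiation, CDH17 rises with irradiation in both populations, and PCDH7 and PCDH9 part the populations in opposite directions.

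Per kilobase of exon, CDH17 led these cadherins with 8.25 CPM per kb in shControl sham and 14.7 in shControl irradiated cells. CDH24 followed with 3.16 CPM per kb in shControl sham, ahead of PCDH9 at 1.92 and of CDH4 and PCDH1, both at 1.71. In shTRIM22 sham cells CDH4 stood at 4.24 and PCDH9 at 0.973 CPM per kb. CDH1, not a member, lay at 215.4 ± 13.2 CPM in shControl sham and 44.4 ± 3.97 in shTRIM22 sham cells. The fall of CDH1 was 4.85-fold without irradiation and 3.95-fold after it, and that of CDH2 1.64-fold and 1.57-fold (adjusted p = 0.00143 and 0.00452).

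**Figure D4:**
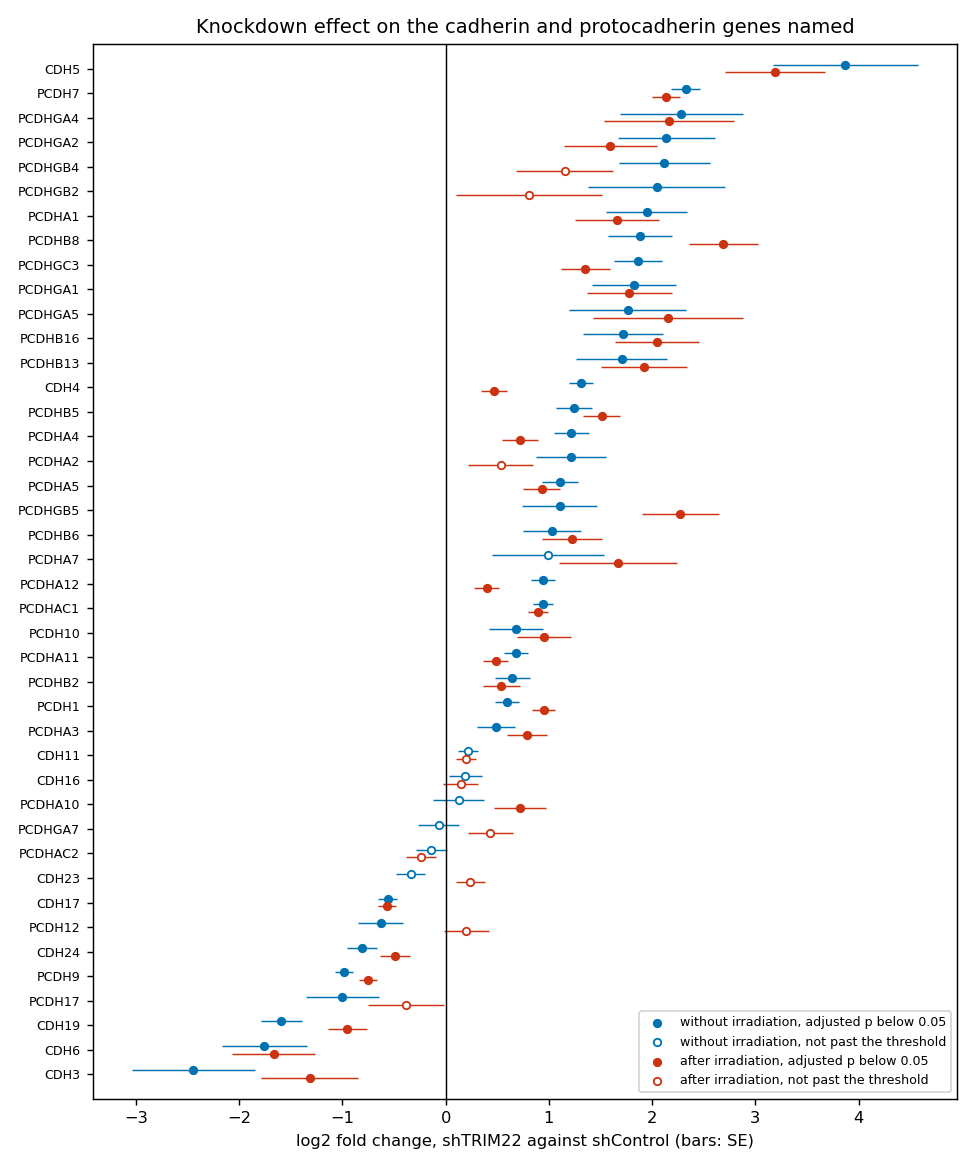
Log2 fold change of shTRIM22 against shControl cells for the 42 members with a mean of at least 1 CPM or a call in any comparison, without (blue) and after irradiation (red); points are edgeR estimates, bars SE, filled points adjusted p below 0.05. Clustered genes lie almost all to the right of 0, while CDH3, CDH6, CDH19, PCDH9, CDH24 and CDH17 lie to the left in both comparisons. Members under 1 CPM are drawn only if called, so the picture is partly set by this selection.

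The remaining 33 members were not tested, and their means over the 12 libraries were at most 0.464 CPM. They are 1 type I, 6 type II and 2 other cadherins, 6 non-clustered protocadherins, and 2 alpha, 5 beta and 11 gamma genes. PCDH8 and PCDH20, nervous-system protocadherins, had 0 counts in all 12 libraries, which for PCDH8 at 3 counts allows at most 0.168 to 0.207 CPM depending on the library, counting error only. Of the 4778 exon bases of PCDH20, 4577 are shared with AL592490.1 on the same strand, so its 0 counts set no such limit. CDH13, the GPI-anchored T-cadherin, had 8 counts in all libraries together. PCDHGA11 and PCDHGA12 had 0 counts in all 6 shControl libraries although they overlap the same constant exons as the expressed gamma genes, so reads in those exons were not counted for every overlapping gene.

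Lists of genes around the members gave mixed counts with knockdown, given here with all libraries. Of all genes tested, knockdown raised 25.4% and lowered 22.1% without irradiation, and raised 17.6% and lowered 18.0% after it. Whether any of these lists or those below differs from these shares was not tested. Of 14 catenins and armadillo partners tested, which link cadherins to actin, 6 were higher and 1 lower without irradiation and 2 and 2 after it, with a median log2 change of 0.18 against 0.02 over all genes in the first. Vinculin (VCL) and alpha-catenin (CTNNA1) rose 1.37-fold and 1.30-fold without irradiation. Of 18 other cadherin-repeat proteins 3 were higher and 7 lower without irradiation and 2 and 7 after it. CELSR3, a planar-polarity cadherin, fell 1.53-fold and 1.60-fold, and the calsyntenin CLSTN3 fell 1.88-fold and 1.27-fold. Of 6 desmosomal genes 2 were higher and 2 lower in each comparison.

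Of 13 nectins and related adhesion molecules 7 were higher and 3 lower without irradiation and 6 and 4 after it, led by the neural adhesion molecule L1CAM, which rose 3.80-fold and 2.21-fold. Of 15 genes of cadherin shedding and endocytosis 1 was higher and 4 lower without irradiation and 3 and 5 after it. The sheddase ADAM10, which cleaves several cadherins, fell 1.56-fold and 1.68-fold. Of 20 cytoplasmic partners of protocadherins 10 were higher and 7 lower without irradiation and 2 and 7 after it. SRC, a tyrosine kinase at adhesion sites, fell 1.95-fold and 1.88-fold, and the WAVE-complex genes ABI2 and WASF1 fell 1.67-fold and 2.20-fold without irradiation.

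Regulators of protocadherin promoter choice, among them CTCF, cohesin and DNA methyltransferase genes, had 4 higher and 3 lower of 21 with knockdown without irradiation and 4 and 5 after it. Without replicate 3 of shTRIM22 sham, 11 of the 21 were called without irradiation in place of 7. DNMT1, the maintenance DNA methyltransferase, rose 1.48-fold and 1.25-fold, and SETDB1, a histone methyltransferase, fell 1.41-fold without irradiation. Irradiation lowered 9 of the 21 and raised 1 in shControl cells, and lowered 11 and raised 0 in shTRIM22 cells. The median log2 changes were -0.19 and -0.24, against 0.01 and 0.00 over all genes. Of all genes, irradiation lowered 7.53% and raised 10.6% in shControl cells, and lowered 14.0% and raised 13.5% in shTRIM22 cells. The cohesin gene SMC3 fell 1.52-fold and 1.51-fold with irradiation. Of 17 tested genes that flank the clusters on chromosome 5, 5 were higher and 3 lower with knockdown without irradiation and 3 and 3 after it, with median log2 changes of 0.01 and -0.10, against 0.94 and 0.72 over the 18 clustered genes that passed the filter through shControl libraries. When replicate 3 of shTRIM22 sham was left out, knockdown without irradiation called 9 catenins and partners, 12 other cadherin-repeat, 5 desmosomal, 12 nectin, 7 shedding, 17 cytoplasmic partner and 11 flanking genes, and after irradiation 5, 9, 4, 10, 9, 13 and 8. For that fit the share over all genes is not given here. GNPDA1 and DIAPH1 rose 2.06-fold and 1.68-fold without irradiation, and DELE1 fell 1.54-fold.

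Markers of other cell types were summed because several members are known from other tissues. The 10 neural markers summed to 184.2 to 193.2 CPM in shControl sham, 181.5 to 188.6 in shControl irradiated, 328.7 to 368.4 in shTRIM22 sham and 291.1 to 301.9 in shTRIM22 irradiated libraries. In the shTRIM22 groups most of this was NEFL, a neurofilament gene, with means of 281.6 CPM in sham and 218.0 in irradiated cells. In shControl cells SNAP25 was the largest, at 97.3 CPM against 56.7 for NEFL in sham and 81.1 against 80.6 in irradiated cells. NEFL rose 4.97-fold with knockdown without irradiation, while MAP2 and SNAP25 fell 4.67-fold and 1.99-fold. Of the 6 neural markers tested, 1 was higher and 3 were lower in each knockdown comparison, with median log2 changes of -0.57 and -0.16. Of all genes, 25.4% were called higher and 22.1% lower without irradiation, and 17.6% and 18.0% after it. The 8 fibroblast markers summed to 6.35 to 8.55, 8.51 to 9.11, 9.30 to 17.3 and 11.1 to 14.1 CPM in the same order of groups. The 8 kidney and intestine markers summed to 11.5 to 12.2, 10.8 to 12.8, 5.22 to 8.27 and 7.47 to 8.24 CPM. Of its 6 tested genes 3 were lower with knockdown without irradiation and 2 after it, among them PAX2 and VIL1 in both. CDH6 and CDH17 were lower too, while CDH16 was not called. The 6 blood cell markers summed to at most 0.495 CPM and the 5 muscle markers to at most 1.48 CPM in any library. The 8 epithelial markers, led by KRT8, summed to 4438 to 4753, 6348 to 6765, 6682 to 8610 and 7166 to 7709 CPM. Of the 7 tested, 4 were higher and 2 lower with knockdown without irradiation, and 1 and 2 after it. Between shControl sham and shTRIM22 sham cells KRT8 went from 2524 to 4034 CPM and CLDN2 from 103.4 to 29.9 CPM. The part of these levels in the members' changes was not tested.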

How the data were processed

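Poly(A) RNA was sequenced from 12 A549 libraries in 4 groups of 3. Per the labels and the table itself, the authors deposited unnormalized read counts of 58735 genes, whose identifiers and exon lengths follow GENCODE release 29. The submitters' processing notes list the build hg38 and the tool DESeq2 1.20.0 but give neither a role. What aligned and counted the reads, and whether strand was used, is not given in the sources used here. Reads of overlapping genes, of near-identical copies and of shared exons may thus be divided, lost or assigned to either gene. The table held 0 per-sample columns beyond these libraries. Gene coordinates are those of the deposited table on GRCh38.

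The deposited counts (14468386 to 17872154 per library) went into edgeR 4.0.16, run under R 4.3.3. Low genes were dropped by filterByExpr (minimum count 10, by group), libraries were scaled by TMM, and 1 mean per group was fitted over all 12 libraries with robust quasi-likelihood tests and Benjamini-Hochberg adjustment over 17094 genes. For the clusters, the counts of all genes of a cluster were summed into 1 row before the same fit, over 17062 rows. SE is the absolute log2 fold change over the root of F, and 95% intervals are 1.96 SE to either side. Levels are TMM-scaled CPM, mean ± SD (n = 3), and levels per kilobase divide by the merged exon length. The steps were tested on simulated counts. The 5 comparisons were irradiation in each population, knockdown in each treatment, and their interaction. Named are the members with a mean of at least 1 CPM or called in at least 1 comparison, which are 42, and of each list up to 3 called genes with the smallest p. The members, the 8 lists of related genes and the 7 marker lists were chosen with earlier results of these data known. First exons were compared by words of 50 bases in GENCODE 29 transcripts.

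To check whether replicate numbers pair libraries, their deviations from group means were correlated over 9759 genes with a mean of at least 10 CPM. Between shControl sham and shTRIM22 sham the same-number correlations were 0.193, 0.170 and 0.294. Replicates 1 and 2 also correlated with each other across these groups, at 0.121 and 0.135, while replicate 3 correlated negatively with both. Over all 17094 genes tested, the same-number correlations between the 2 sham groups were smaller, at 0.0761, 0.0293 and 0.0942. The numbers may pair the libraries of these groups, from the data and not from the labels. The main fit does not use such a pairing, and a replicate block was run as an alternative. In the other comparisons not all same-number correlations exceeded 0.1.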

Additional observations from a re-analysis of the deposited data

Results flagged for a closer look

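CDH4 was the member whose response to irradiation differed between the populations by a test of the difference itself, 1 of 53 tested, where 1.61% of all genes were called. The log2 effect of irradiation was -0.37 in shControl cells and -1.21 in shTRIM22 cells, and the interaction was -0.84 (edgeR adjusted p = 0.0196). All 3 irradiated libraries lay below all 3 sham libraries in each population. The interaction call was lost in 7 of 18 alternatives, all of which left out a library, with an adjusted p of 6.96e-04 to 0.0740 over the alternatives. Its direction was kept in all 18. Without replicate 3 of shTRIM22 sham, the library that stood apart, the interaction of PCDH12 passed as well (log2 1.05, adjusted p = 0.0285).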

How the results depend on the processing

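Of 83 calls of named members in the 5 comparisons, 53 were kept in all alternatives run and 30 were lost in at least 1; 0 changed direction past the threshold. Of 127 pairs not called, 9 passed in at least 1 alternative. The alternatives were median-ratio scaling, DESeq2 1.42.0, no filter on low counts, a minimum count of 30, only the compared groups, a replicate block, no mitochondrially encoded genes, and leaving out each library. For these fits the shares over all genes are not given.

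With the replicate block irradiation of shControl cells lowered 1 member in place of 2, since CDH4 was no longer called. The block changed no other count of members by over 1.5 times. Fitted on only the compared groups, irradiation of shTRIM22 cells raised 3 members in place of 7, and the alpha sum was at -0.21 (adjusted p = 0.128). Without the filter it lowered 6 in place of 3, and the gamma sum was at -0.32 (adjusted p = 0.0637). Without mitochondrial genes the alpha sum was at -0.20 (adjusted p = 0.0514) there, and the gamma sum of shControl cells was called at -0.34 (adjusted p = 0.0490). The causes were not tested.

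Leaving out 1 library in turn, irradiation of shControl cells raised 1 to 4 members and lowered 0 to 2, and that of shTRIM22 cells raised 2 to 8 and lowered 1 to 4. Knockdown raised 25 to 28 and lowered 6 to 9 without irradiation, and raised 21 to 28 and lowered 4 to 6 after it. The interaction held 0 to 1 higher and 0 to 2 lower members. Under irradiation the alpha sum of shTRIM22 cells was at -0.26 to -0.12 and its gamma sum at -0.34 to -0.28, and the gamma sum of shControl cells at -0.38 to -0.26. With knockdown the 3 sums were called in every such fit.

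List counts were tried after seeing the data. On only the compared groups, knockdown without irradiation called 4 catenins in place of 7, 2 desmosomal genes in place of 4 and 3 shedding genes in place of 5, and knockdown after irradiation 15 cytoplasmic partners in place of 9. Without the filter 2 catenins were called after irradiation in place of 4. Leaving out 1 library gave 1 to 5 catenins after irradiation, and without irradiation 2 to 5 desmosomal, 3 to 7 shedding and 6 to 11 promoter-regulator genes. Members under 1 CPM rest on few reads, and folds from them are imprecise.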
